A study of Rattus norvegicus with 36 samples.

Results

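Cryl1, Snx10, Abhd2, Plekhb1, Rhof and Coch are 6 genes whose liver transcripts differed between rats given the highest dose of hexabromocyclododecane (HBCD) and rats given vehicle. They were chosen by the log2 differences of 641 mg/kg against vehicle, and some possibly also of 641 against 64.1 mg/kg, so these differences are given as a description and without a test. A probe set is a group of array probes designed to be read together for a gene. All 7 probe sets that the platform annotation pairs with these symbols were taken, of 31042 probe sets in all. The 6 genes stand among 14217 distinct gene symbols on the array, and Snx10 is the one with 2 probe sets.

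HBCD is a brominated flame retardant. Male Sprague Dawley rats received it in corn oil by oral gavage, 5 ml/kg a day on 5 consecutive days from 7 weeks of age, and the left liver lobe was sampled 1 day after the last dose. One group of 6 arrays had vehicle alone, and the HBCD doses of the other groups, also of 6 arrays each, were 0.06 mg/kg, 0.641 mg/kg, 6.41 mg/kg, 64.1 mg/kg and 641 mg/kg. Replicates are numbered in the labels but are not said to be separate rats, so the p-values describe a spread between samples that could be technical. Levels are log2 values per probe set, given as mean ± SD over the n = 6 arrays of a group. In a bulk tissue such as this, fewer cells of a type and less RNA per cell cannot be told apart.

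The genes belong to different parts of cell biology and are not among the usual marker genes of xenobiotic induction. Cryl1 encodes lambda-crystallin, the L-gulonate 3-dehydrogenase of the glucuronate pathway, in which the liver turns UDP-glucuronate into L-gulonate and then into pentose sugars or, in rats, vitamin C. Snx10 is a sorting nexin of endosomal trafficking, best known from osteoclasts, and Abhd2 is a membrane-bound serine hydrolase. Plekhb1, also called evectin, is a membrane protein with a pleckstrin homology domain first described in the retina. Rhof encodes a small GTPase that drives filopodia, and Coch encodes cochlin, an extracellular matrix protein known from the inner ear.

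Arrays of the same group correlated at 0.991 to 0.997 across probe sets, and their medians lay between 4.83 and 4.903 on the log2 scale. The 3-prime minus 5-prime difference of the Gapdh controls was -0.05 to 0.01 at 641 mg/kg, against -0.06 to 0.05 in vehicle, and that of actin 1.06 to 1.23 at 641 mg/kg, against 0.99 to 1.39 in vehicle. Replicate 2 of 0.641 mg/kg was the highest of all 36 arrays in both, at 0.19 for Gapdh and 1.58 for actin. Without it, the differences of 64.1 mg/kg from the 3 lower doses described for Cryl1, Rhof and Coch were 0.25, 0.0028 and 0.03 log2 units. All 11 measured hepatocyte markers lay above the background level in every group, and none was called at 641 mg/kg against vehicle. Their summed linear level was 132200 to 137100 at 641 mg/kg, against 137100 to 141200 in vehicle. Markers were also measured for cholangiocytes, macrophages, neutrophils, lymphocytes, stellate cells, endothelium, erythroid cells and exocrine pancreas. Of these the T cell marker Cd8a alone was called at 641 mg/kg against vehicle, where 2.48% of all genes were called. Its log2 difference was -0.66 (limma adjusted p = 0.0176). Cd8a lay near the background level of 4.27 set by genes not used in liver, with a mean of 4.45 and a lowest array of 4.07 at 641 mg/kg. The T cell markers Cd3e, Cd3g, Cd4 and Cd2 differed by -0.02, -0.06, -0.04 and 0.09 log2 units and were not called.

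Over the whole array, 1.65% of probe sets were called at 641 mg/kg against vehicle by limma at a Benjamini-Hochberg adjusted p under 0.05, and 0.242% at 641 against 64.1 mg/kg. Of the 7 probe sets described here, 6 were called in the first comparison and 4 in the second, which reflects how the genes were chosen. In 12 fits that each left out 1 vehicle or 641 mg/kg array, 4 to 6 were called in the first comparison. Coch and the Snx10 probe set whose identifier ends in _s_at each lost their call in 9 of these fits. At 64.1 mg/kg against vehicle, 0.0419% of all probe sets were called and 0 of the 7, of which 1 had an unadjusted p under 0.05. At 0.06, 0.641 and 6.41 mg/kg against vehicle limma called 0% of probe sets, with 1293, 1477 and 1282 of 31042 at an unadjusted p under 0.05, among them 0, 2 and 2 of the 7. All of these comparisons share their vehicle arrays, or those at 641 mg/kg, with the choice of the genes.

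**Figure D1:**
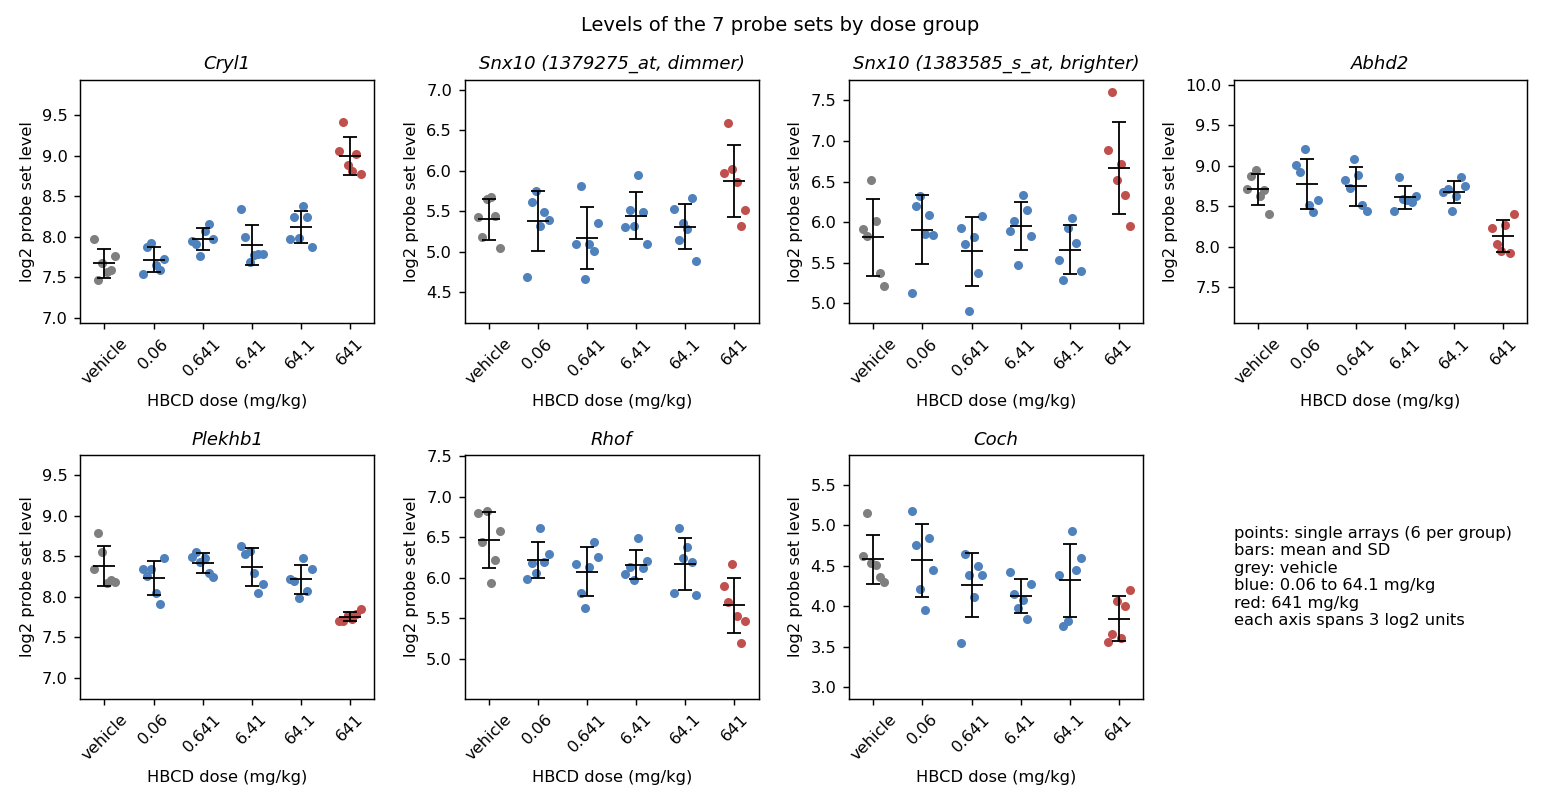
Log2 level of each of the 7 probe sets (vertical axes, each spanning 3 log2 units) on single arrays by HBCD dose in mg/kg, 6 arrays per group, with the mean and SD as bars. Cryl1 and Plekhb1 at 641 mg/kg sit apart from all 30 other arrays, whereas the other probe sets overlap with them. The 641 mg/kg arrays chose the genes, and the share of all probe sets that separate so was not counted.

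The genes higher at 641 mg/kg were Cryl1 and Snx10. Their promoters are shown because both were higher at 641 mg/kg from very different levels in vehicle. Each run covers 250 bases before to 50 bases after the start of the gene, from RefSeq on GRCr8, 5′ to 3′ on the strand of the gene. Capitals mark matches on either strand to any of 8 motifs searched.
Cryl1: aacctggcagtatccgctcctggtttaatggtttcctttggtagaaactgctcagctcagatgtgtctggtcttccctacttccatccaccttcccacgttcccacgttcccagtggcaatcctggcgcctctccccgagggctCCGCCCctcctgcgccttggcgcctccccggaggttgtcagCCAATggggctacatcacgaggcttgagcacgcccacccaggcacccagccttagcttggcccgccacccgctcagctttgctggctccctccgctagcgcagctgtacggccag
Snx10: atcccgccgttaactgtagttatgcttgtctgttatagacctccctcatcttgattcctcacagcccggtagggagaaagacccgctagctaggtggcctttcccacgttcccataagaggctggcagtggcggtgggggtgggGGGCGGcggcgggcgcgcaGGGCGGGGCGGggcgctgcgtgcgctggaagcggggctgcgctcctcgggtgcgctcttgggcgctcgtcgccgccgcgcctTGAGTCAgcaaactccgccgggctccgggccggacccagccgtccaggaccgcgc
The Cryl1 run lies at chr15:35661514-35661813 on the minus strand and the Snx10 run at chr4:81943073-81943372 on the plus strand. The table held 33469 promoters of this length. The GC box, spelled GGGCGG, was found in 33.1% of them. The CCAAT box, spelled as it is named, was found in 37.5%. The TATA box, searched as TATAAA, was found in 14.2%, and the E-box, spelled CACGTG, in 6.42%. The core of the antioxidant response element, TGACNNNGC, was found in 12.1%, and the AP-1 site, searched as TGANTCA, in 7.33%. The nuclear receptor sites were searched in the form AGGTCA, found in 16.2%, and in the form AGTTCA, found in 14.5%. Cryl1 had a GC box at -106 and a CCAAT box at -65 from the start of the gene. Snx10 had GC boxes at -106, -87 and -82, of which the last pair overlap each other, and an AP-1 match at -5. These are matches of letters and not sites of binding.

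Cryl1 had the largest difference of the 6 genes at 641 mg/kg. Its lowest, median and highest levels were 7.46, 7.63 and 7.97 in vehicle, 7.54, 7.69 and 7.92 at 0.06 mg/kg, and 7.77, 7.96 and 8.16 at 0.641 mg/kg. They were 7.68, 7.79 and 8.34 at 6.41 mg/kg, 7.88, 8.11 and 8.37 at 64.1 mg/kg, and 8.77, 8.95 and 9.41 at 641 mg/kg. All 6 arrays at 641 mg/kg lay above every other array of the study. Separation at 641 mg/kg, here and for the genes below, rests on the arrays that chose the genes. The share of all probe sets so separated, from vehicle or from all other arrays, was not counted. Below that dose the groups overlapped, and 0, 3, 2 and 4 of 6 arrays at 0.06, 0.641, 6.41 and 64.1 mg/kg exceeded the highest vehicle array.

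Mean Cryl1 level was 8.99 ± 0.23 at 641 mg/kg and 7.67 ± 0.18 in vehicle, a 2.50-fold difference (95% CI 2.15 to 2.91). Against 64.1 mg/kg, at 8.11 ± 0.20, it was 1.84-fold higher, with a log2 difference of 0.88 (95% CI 0.66 to 1.10). The group means ran in the order vehicle, 0.06, 6.41, 0.641, 64.1 and 641 mg/kg, so 0.641 and 6.41 mg/kg stood out of dose order. Log2 differences of Cryl1 from vehicle were 0.05, 0.30, 0.23 and 0.44 at 0.06, 0.641, 6.41 and 64.1 mg/kg. Neighbours in that order differed by 0.05 to 0.18 log2 units up to 64.1 mg/kg, less than the residual SD of 0.19 for single arrays. The standard error of a difference between group means was smaller, at 0.11 log2 units.

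The step below the top dose could be described without vehicle, because 64.1 mg/kg can be set against the 3 lower doses of 0.06, 0.641 and 6.41 mg/kg. In this comparison limma called 0.0354% of all probe sets, and 0 of the 7 described here. Cryl1 was 1.19-fold higher at 64.1 mg/kg than at the 3 lower doses (log2 difference 0.25; 95% CI 0.07 to 0.43), which is 22.3% of its log2 difference between 641 mg/kg and the same 3 doses. Of the 6 arrays at 64.1 mg/kg, 1 lay above all 18 arrays of the lower doses. The 64.1 mg/kg arrays may have contributed to the choice of Cryl1, so no p is given and the interval is a description only.

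Across 0.06 to 64.1 mg/kg, the fitted slope of Cryl1 averaged 0.11 log2 units per dose step (95% CI 0.04 to 0.18), although its mean was higher at 0.641 than at 6.41 mg/kg. Limma called 0.0258% of all probe sets for this slope, and 0 of the 7. The slope uses the same 64.1 mg/kg arrays, so its interval for Cryl1 is a description too. The summed linear level of the 8 measured macrophage markers, all above background, was 2805 to 4660, 2934 to 5313, 2478 to 5381 and 2368 to 4202 at 0.06, 0.641, 6.41 and 64.1 mg/kg. The ranges overlapped, and the median log2 difference of the markers was -0.31 at 64.1 mg/kg against the 3 lower doses, with none called by limma. Within groups, Cryl1 correlated with the macrophage marker level at r = -0.37 over 36 arrays and with the hepatocyte marker level at -0.34. Other genes had values of this size, such as Coch and Plekhb1 with neutrophil markers at 0.43 and 0.40. Of the 5 neutrophil markers, 1 lay above background. Without the arrays 2, 3 and 4 of 64.1 mg/kg, where the macrophage markers were lowest, the Cryl1 difference was 0.17 log2 units. The part of the macrophage markers in this difference was not tested further.

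**Figure D2:**
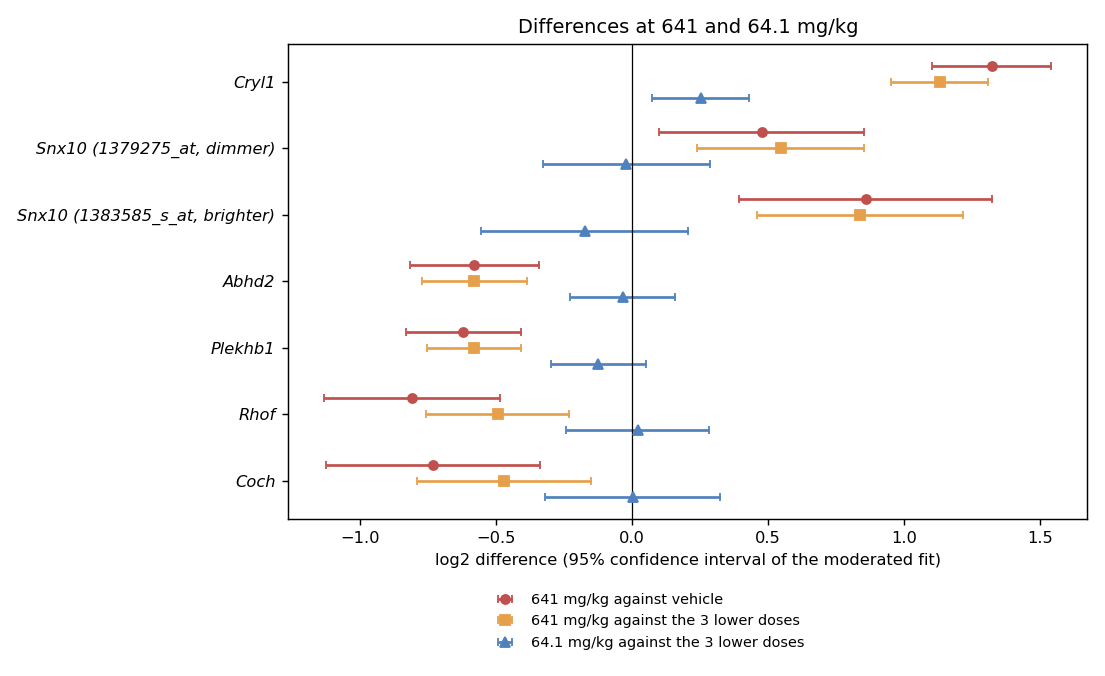
Log2 differences of the 7 probe sets (horizontal axis) with 95% confidence intervals of the moderated fit, for 641 mg/kg against vehicle, 641 mg/kg against the 3 lower doses, and 64.1 mg/kg against the 3 lower doses. At 64.1 mg/kg the interval of Cryl1 is 0.07 to 0.43 and the other intervals include 0. The Cryl1 interval is a description and not a test, because the 64.1 mg/kg arrays may have contributed to its choice. The intervals at 641 mg/kg are descriptions too, because those arrays chose the genes.

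Snx10 was read by 2 probe sets that agreed in direction and differed in size. They are called here the brighter, whose identifier ends in _s_at, and the dimmer. On the brighter probe set, the lowest, median and highest levels were 5.95, 6.62 and 7.61 at 641 mg/kg, against 5.21, 5.87 and 6.52 in vehicle. On the dimmer they were 5.32, 5.92 and 6.59 at 641 mg/kg, against 5.04, 5.43 and 5.68 in vehicle. The same array, replicate 2 of 641 mg/kg, was highest on both. On each probe set 4 of 6 arrays at 641 mg/kg exceeded every vehicle array and the groups overlapped.

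The difference of 641 mg/kg against vehicle was 1.81-fold on the brighter probe set (95% CI 1.31 to 2.50), with means of 6.67 ± 0.56 at 641 mg/kg and 5.81 ± 0.47 in vehicle. It was 1.39-fold on the dimmer (95% CI 1.07 to 1.80), with means of 5.88 ± 0.44 at 641 mg/kg and 5.40 ± 0.25 in vehicle. The dimmer was the only probe set described here that was not called in this comparison, and it was not called at 641 against 64.1 mg/kg either. With 1 array of these groups left out, the log2 difference ranged from 0.67 to 1.00 on the brighter probe set and from 0.33 to 0.59 on the dimmer.

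Below 641 mg/kg, Snx10 had no order of levels by dose. Means at 0.06, 0.641, 6.41 and 64.1 mg/kg were 5.91 ± 0.43, 5.64 ± 0.43, 5.95 ± 0.30 and 5.66 ± 0.30 on the brighter probe set. On the dimmer they were 5.38 ± 0.37, 5.18 ± 0.38, 5.45 ± 0.29 and 5.31 ± 0.28. On both probe sets 0.641 mg/kg was lowest, 64.1 mg/kg next and 6.41 mg/kg the highest below 641 mg/kg. Those neighbours differed by less than the residual SD of 0.40 and 0.32 log2 units. At 64.1 mg/kg against the 3 lower doses, the differences were -0.17 (95% CI -0.55 to 0.21) on the brighter probe set and -0.02 (95% CI -0.33 to 0.29) on the dimmer.

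Over the 36 arrays the Snx10 probe sets correlated at r = 0.84 (Spearman's rho 0.71), and at r = 0.77 for deviations from the group means. The points share arrays and dose groups. The suffix of the brighter probe set marks probes that can match more than 1 transcript, and the dimmer carries no such mark. Within groups, the hepatocyte marker level correlated with Snx10 at r = -0.53 on the dimmer probe set and -0.38 on the brighter. Its part in the Snx10 difference was not tested.

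**Figure D3:**
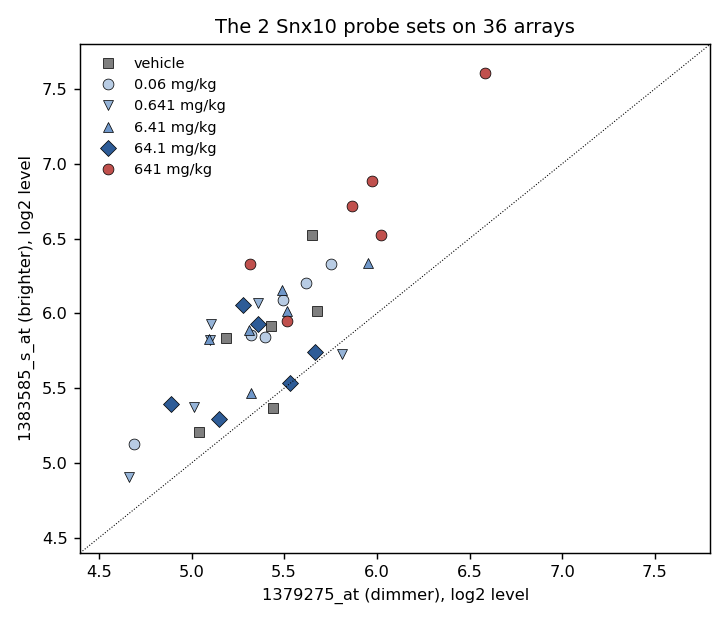
Log2 level of Snx10 on the brighter probe set (vertical axis) against the dimmer (horizontal axis) for the 36 arrays, with symbols by dose group and a dotted line of equal level. The arrays rise together on both probe sets (r = 0.84), and replicate 2 of 641 mg/kg stands at the upper right at 7.61 and 6.59.

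Abhd2, Plekhb1, Rhof and Coch were lower at 641 mg/kg. The promoters of Abhd2 and Plekhb1 are shown because their levels were the most alike of any pair of the 6 genes, at r = 0.71 over the 36 arrays and 0.43 within groups. They are printed in the same way as those of Cryl1 and Snx10, with matches to the same motifs in capitals.
Abhd2: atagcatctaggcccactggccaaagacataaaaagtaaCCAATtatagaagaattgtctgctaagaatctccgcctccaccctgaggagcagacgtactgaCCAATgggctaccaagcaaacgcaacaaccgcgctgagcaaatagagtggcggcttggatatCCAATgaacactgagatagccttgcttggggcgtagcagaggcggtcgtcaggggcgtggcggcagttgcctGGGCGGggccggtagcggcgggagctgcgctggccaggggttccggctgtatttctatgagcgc
Plekhb1: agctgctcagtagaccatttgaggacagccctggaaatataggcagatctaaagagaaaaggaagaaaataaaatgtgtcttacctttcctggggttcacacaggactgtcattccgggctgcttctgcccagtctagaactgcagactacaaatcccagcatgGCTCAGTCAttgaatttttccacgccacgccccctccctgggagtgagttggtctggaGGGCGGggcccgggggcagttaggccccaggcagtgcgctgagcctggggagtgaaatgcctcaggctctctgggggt
The Abhd2 run lies at chr1:142626498-142626797 on the plus strand and the Plekhb1 run at chr1:164425123-164425422 on the minus strand, both on GRCr8. Abhd2 had CCAAT boxes at -211, -148 and -86 and a GC box at -14. Plekhb1 had a GC box at -28 and, on the strand opposite the gene, a match to the antioxidant response element core at -86. Every one of the 6 promoters held a GC box, and none held the E-box or either nuclear receptor site within its 300 bases.

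Mean Abhd2 level stayed between 8.61 and 8.78 in the groups up to 64.1 mg/kg and was lower at 641 mg/kg. Its lowest, median and highest levels were 7.92, 8.13 and 8.40 at 641 mg/kg, against 8.40, 8.71 and 8.95 in vehicle. Of the 6 arrays at 641 mg/kg, 5 lay below every one of the 30 other arrays, and the sixth overlapped with vehicle. Mean level was 8.13 ± 0.19 at 641 mg/kg and 8.71 ± 0.19 in vehicle, or 1.49 times lower at 641 mg/kg (log2 difference -0.58; 95% CI -0.81 to -0.34).

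The intermediate Abhd2 means spanned a narrow range. They were 8.78 ± 0.31, 8.75 ± 0.24, 8.61 ± 0.14 and 8.68 ± 0.14 at 0.06, 0.641, 6.41 and 64.1 mg/kg. Set against the 3 lower doses, 64.1 mg/kg differed by -0.033 log2 units (95% CI -0.23 to 0.16), while 641 mg/kg differed by -0.58. The group nearest to 641 mg/kg was 6.41 mg/kg, 0.48 log2 units higher, and all other neighbours were closer than the residual SD of 0.20.

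Plekhb1 had the tightest group of the 7 probe sets at 641 mg/kg. Its lowest, median and highest levels there were 7.70, 7.76 and 7.85, against 8.18, 8.28 and 8.79 in vehicle. All 6 arrays at 641 mg/kg lay below every one of the 30 other arrays, the lowest of which stood at 7.91. Mean level was 7.76 ± 0.06 at 641 mg/kg and 8.38 ± 0.25 in vehicle, or 1.54 times lower at 641 mg/kg (log2 difference -0.62; 95% CI -0.83 to -0.41).

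At the other doses, mean Plekhb1 level was 8.23 ± 0.21, 8.42 ± 0.12, 8.37 ± 0.24 and 8.22 ± 0.18 at 0.06, 0.641, 6.41 and 64.1 mg/kg. The highest mean was thus at 0.641 mg/kg and the lowest below the top dose at 64.1 mg/kg. The difference of 64.1 mg/kg from the 3 lower doses was -0.12 log2 units (95% CI -0.30 to 0.05), 21.2% of the difference of 641 mg/kg from them. Its interval included 0.

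Mean Rhof level lay below vehicle at every dose, as did that of Coch. The size of the Rhof difference at 641 mg/kg varied with the comparison. Lowest, median and highest levels were 5.19, 5.61 and 6.17 at 641 mg/kg, against 5.93, 6.51 and 6.82 in vehicle. Of the 6 arrays at 641 mg/kg, 5 lay below every vehicle array and 3 below every one of the 30 other arrays. Mean level was 5.66 ± 0.34 at 641 mg/kg and 6.46 ± 0.35 in vehicle, or 1.75 times lower at 641 mg/kg (log2 difference -0.81; 95% CI -1.13 to -0.48).

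Means of Rhof at 0.06, 0.641, 6.41 and 64.1 mg/kg were 6.22 ± 0.22, 6.07 ± 0.30, 6.16 ± 0.18 and 6.17 ± 0.32. Their differences from vehicle were -0.25, -0.39, -0.30 and -0.29 log2 units, with no order by dose. None of these differences was called by limma, and the same vehicle arrays entered the choice of Rhof. Set against the 3 lower doses in place of vehicle, a comparison chosen after its values were seen, 641 mg/kg was 1.41 times lower (log2 difference -0.49; 95% CI -0.76 to -0.23). The group next to 641 mg/kg was 0.641 mg/kg, 0.42 log2 units higher, against a residual SD of 0.28.

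Rhof and Coch were not called at 641 against 64.1 mg/kg, so no part of the lower doses in their choice is known, and they were tested. The absence of that call also rests on the 64.1 mg/kg arrays, so these tests are not independent of it. At 64.1 mg/kg against the 3 lower doses, Rhof differed by 0.02 log2 units (95% CI -0.24 to 0.28; limma adjusted p = 0.991). Coch differed by 0.0021 (95% CI -0.32 to 0.32; limma adjusted p = 0.999). The slopes per dose step were -0.0054 for Rhof (95% CI -0.11 to 0.10; limma adjusted p = 0.999) and -0.09 for Coch (95% CI -0.21 to 0.04; limma adjusted p = 0.991). Neither gene passed the test, and a p that misses the threshold does not show that levels were equal.

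Coch was the dimmest of the 6 genes and its levels fell near the background of the array. Lowest, median and highest levels were 3.56, 3.83 and 4.20 at 641 mg/kg, against 4.30, 4.52 and 5.16 in vehicle. All 6 arrays at 641 mg/kg lay below every vehicle array, but the lowest of the 30 other arrays, at 3.54 in the 0.641 mg/kg group, lay below them all. Mean level was 3.85 ± 0.27 at 641 mg/kg and 4.58 ± 0.31 in vehicle, a log2 difference of -0.73 (95% CI -1.12 to -0.34). No fold is given, because all 6 arrays at 641 mg/kg, the highest at 4.20, lay below the background level of 4.27 described for genes not used in liver.

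Coch means at 0.06, 0.641, 6.41 and 64.1 mg/kg were 4.57 ± 0.45, 4.26 ± 0.39, 4.12 ± 0.21 and 4.32 ± 0.45. The gap between 641 mg/kg and the next group, 6.41 mg/kg, was 0.28 log2 units, less than the residual SD of 0.33. Coch was the only probe set of the 7 for which this held. The standard error of a difference between its group means was 0.19 log2 units. Against the 3 lower doses, the log2 difference of 641 mg/kg was -0.47 (95% CI -0.79 to -0.15).

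Distance to background was read from 41 probe sets of 33 genes that liver is not known to use. Their median level was 3.27 and their 90th percentile 4.27. Mean levels over all arrays were 8.61 for Abhd2, 8.23 for Plekhb1 and 8.06 for Cryl1, which is 4.34, 3.96 and 3.79 log2 units above that percentile. None of the 41 probe sets was brighter than any of these 3 genes, which stood at percentiles 90.04, 87.6 and 86.3 of all probe sets.

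Rhof and Snx10 lay in the middle. Rhof averaged 6.12, and Snx10 5.94 on the brighter probe set and 5.43 on the dimmer, or 1.85, 1.67 and 1.16 log2 units above the 90th percentile of the genes not used in liver. All 36 arrays exceeded that percentile for each of them, and 1 of the 41 probe sets was brighter. Coch averaged 4.28, only 0.012 above that percentile, and 20 of 36 arrays exceeded it. For Coch 3 of 36 arrays lay above their own array's median level, and 4 of the 41 probe sets were brighter. The Coch difference was thus measured within the range of genes not used in liver.

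**Figure D4:**
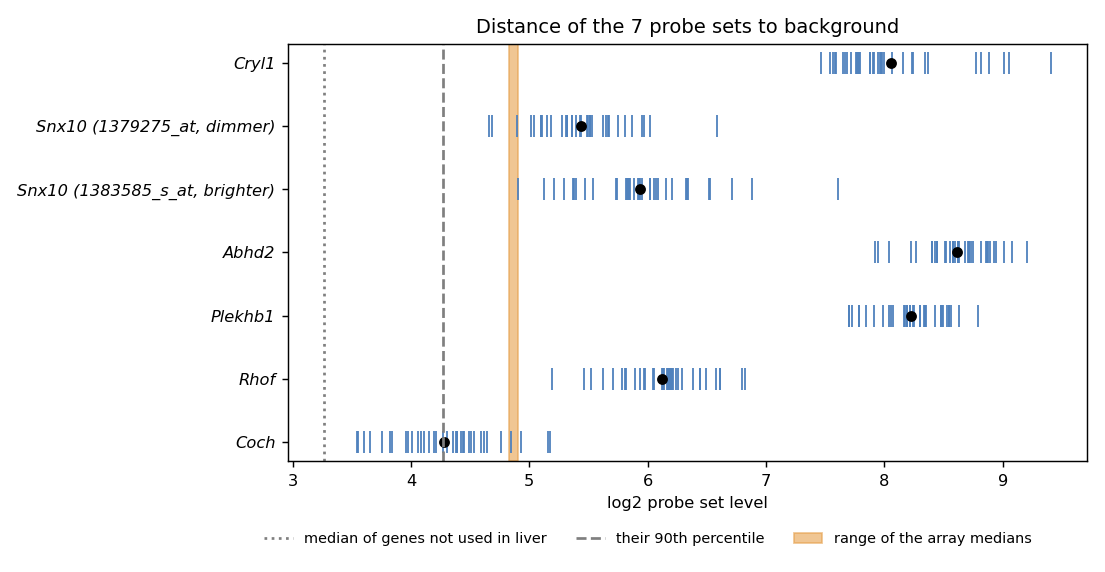
Log2 level of the 7 probe sets on single arrays (ticks) with the mean over 36 arrays (dots). The dotted and dashed lines are the median (3.27) and 90th percentile (4.27) of probe sets of genes not used in liver, and the band is the range of the array medians (4.83 to 4.903), with Coch alone centred on the dashed line.

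Among themselves the genes varied together in ways that differed between and within dose groups. Cryl1 correlated with Abhd2 at r = -0.68 and with Plekhb1 at -0.64 over the 36 arrays, where the dose groups are shared, but at -0.11 and 0.11 for deviations from the group means. Cryl1 and the brighter Snx10 probe set stood at 0.62 over all arrays and 0.42 within groups. Plekhb1 and Coch stood at 0.51 and 0.39. Cryl1 and Rhof turned sign, with -0.49 over all arrays and 0.34 within groups.

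Genes most like each of the 6 were sought among 7419 genes with a mean level of at least 6, by Pearson's r over the 36 arrays. For Cryl1 these were the carboxylesterase Ces2c (0.95), the biliverdin reductase Blvrb (0.93) and the glutathione transferase Gsta3 (0.92). For Snx10 they were Tomm5 (0.80) and Tomm70 (0.79), both of the mitochondrial import machinery, and the mitochondrial transcription factor Tfb2m (0.73). For Abhd2 they were the taurine transporter Slc6a6 (0.71), Plekhb1 (0.71) and the palmitoyltransferase Zdhhc23 (0.69).

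Plekhb1 was most like the tyrosylprotein sulfotransferase Tpst1 (0.81), the hydrolase Abhd1 (0.80) and the polyamine acetyltransferase Sat1 (0.78). Rhof was most like the phospholipid transporter Abcb4 (0.69), Pxdc1 (0.69) and the tight junction claudin Cldn1 (0.68). Coch was most like the nuclear receptor Ppard (0.61), Chmp1b (0.61) and the hyaluronidase Hyal3 (0.60). These arrays share their dose groups, including the 641 mg/kg arrays by which the genes were chosen.

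With group means removed, the order changed for most genes. Ces2c stayed closest to Cryl1 (0.74), followed by the lipin Lpin2 (0.73) and Cyp2j4 (0.68), and Tpst1 stayed closest to Plekhb1 (0.68), followed by Sat2 (0.68) and Hrg (0.66). Snx10 was then most like Dhdds (0.74), Tomm5 (0.72) and Kgd4 (0.72), and Abhd2 most like Hgsnat (0.66), Chkb (0.66) and Ephx2 (0.59). The closest genes to Rhof were Tufm (0.73), the tight junction protein gene Ocln (0.67) and Anapc5 (0.66), and those to Coch were Rell1 (0.62), Mapre2 (0.61) and Zfp729 (0.61). All of these are the highest of many correlations, and how high they would run by chance was not tested. Coch also lay near background.

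The glucuronate pathway around Cryl1 was measured in 13 other genes. At 641 mg/kg against vehicle, 4 of the 13 rose and 1 fell, with a median log2 difference of 0.06, where 2.48% of all genes were called and the median gene stood at -0.0070. Tkt, the transketolase that takes up the pentose end product, rose 1.40-fold, with means of 11.02 ± 0.12 at 641 mg/kg and 10.53 ± 0.11 in vehicle (limma adjusted p = 1.78e-06). Ugdh, which makes UDP-glucuronate, rose 1.28-fold, with 11.45 ± 0.11 at 641 mg/kg and 11.09 ± 0.14 in vehicle (limma adjusted p = 0.000962). Sord, the sorbitol dehydrogenase, rose 1.20-fold, with 11.71 ± 0.06 at 641 mg/kg and 11.45 ± 0.03 in vehicle (limma adjusted p = 0.00366).

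Gulo fell, the oxidase that completes vitamin C synthesis in rats from the L-gulonate that Cryl1 also uses. It was 1.26 times lower, with means of 11.38 ± 0.12 at 641 mg/kg and 11.72 ± 0.07 in vehicle (limma adjusted p = 0.000479). Tkt, Ugdh, Sord and Gulo were each called in all of the 12 fits that left out 1 array. Akr1a1, the reductase that makes L-gulonate, was the fifth called gene, 1.11-fold higher (limma adjusted p = 0.0342), and is named after its values were seen. It was not called with arrays centred on their medians (limma adjusted p = 0.0515) nor in 7 of the 12 fits.

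The other 8 genes did not pass. Ugp2, which makes UDP-glucose, stood at 0.23 log2 units above vehicle (limma adjusted p = 0.071). It was called with the replicate block (limma adjusted p = 0.0462), after a second quantile normalization (0.0475) and with a variance trend (0.0338), and without vehicle replicate 6 (0.0435) or replicate 4 of 641 mg/kg (0.0456). Dcxr, the xylulose reductase that follows Cryl1, stood at 0.0043. Rgn, the lactonase on the branch to vitamin C, stood at -0.06 and Miox, the inositol oxygenase, at -0.30 (limma adjusted p = 0.227). At 64.1 mg/kg against the 3 lower doses none of the 13 genes was called, with a median log2 difference of 0.03.

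**Figure D5:**
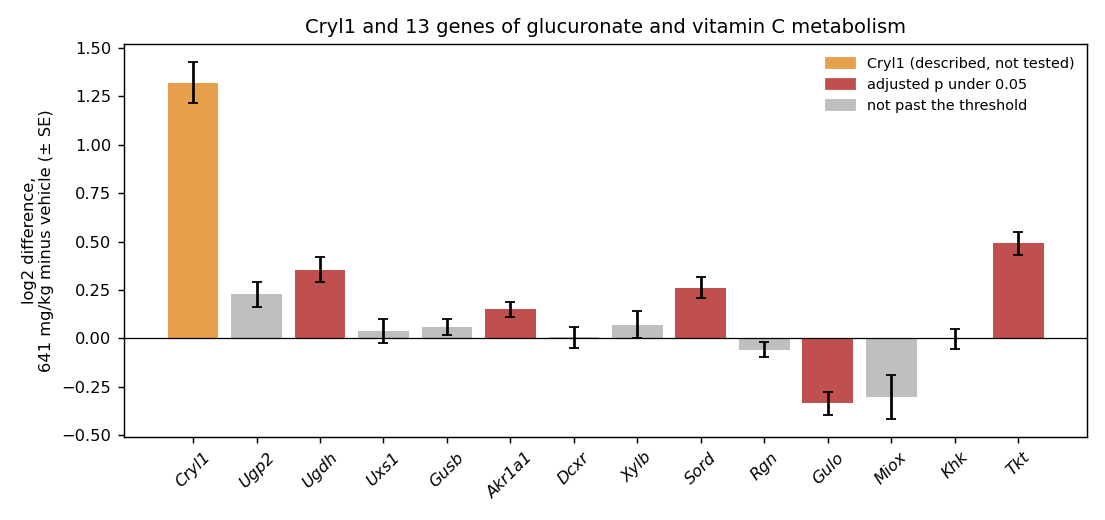
Log2 difference of 641 mg/kg minus vehicle (bars, ± SE of the moderated fit) for Cryl1 and 13 other genes of glucuronate and vitamin C metabolism, coloured by whether limma's adjusted p was under 0.05. Cryl1 (1.32, described without a test) exceeds Tkt (0.49) and Ugdh (0.36), and Gulo (-0.34) lies below 0.

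Genes of the families of Snx10, Plekhb1, Coch and Abhd2 were also measured. At 641 mg/kg against vehicle, where 2.48% of all genes were called, none of 24 measured sorting nexin genes other than Snx10 was called (median log2 difference 0.02), and none of 22 genes with pleckstrin homology names (-0.0083) or 9 matrix genes with domains like those of cochlin (-0.04). Of 18 other Abhd hydrolase genes 1 fell. This was Abhd1, 1.26 times lower, with means of 7.75 ± 0.12 at 641 mg/kg and 8.08 ± 0.18 in vehicle (limma adjusted p = 0.0222). Counts this small lie near the share over all genes. Abhd1 is also among the genes most like Plekhb1.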

How the data were processed

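RNA of rat liver was measured on 36 one-colour arrays, 6 per group. The deposited values were log2 levels per probe set, which the authors made by RMA (affy package), per the submitters' processing notes, with versions not given in the sources used here. In outline, RMA subtracts background, normalizes arrays to each other and combines the probes of a probe set. No further normalization was applied. The number of arrays limits the precision, and the values carry no detection calls, so background was set by genes not used in liver.

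Of 31099 probe sets, 57 controls were left out. In the platform annotation 20826 of the others had 1 symbol, 436 several and 9780 none, and 20758 symbols matched a gene table by ID. The files' genome build was not given in the sources used here, so gene coordinates were not used. The promoters came from a RefSeq table on GRCr8.

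Limma 3.58.1 in R 4.3.3 fitted group as a factor over all 36 arrays, with two-sided tests, Benjamini-Hochberg adjustment over 31042 probe sets and calls at an adjusted p under 0.05. The slope is a linear contrast over the ranks of 0.06 to 64.1 mg/kg. The fit was tested on simulated data. No identical arrays were found.

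The genes, lists and tests were chosen with earlier results of these data known. Named genes were the 6 with all their probe sets, the 3 genes most like each by each measure, and from each list the called genes, at most 4 by size of change. Other genes are named after their values were seen, and 1 list is not reported here. Alternatives were a replicate block, centring on array medians, a second quantile normalization, filters on dim probe sets, a variance trend, array weights, a fit on the groups compared and leaving out single arrays.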

Additional observations from a re-analysis of the deposited data

Results flagged for a closer look

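Coch in vehicle replicate 2, at 5.16 on the log2 scale, was marked because the gap to the next vehicle array was large against the range of the 6 vehicle arrays. The next highest stood at 4.62 and the lowest at 4.30. It was 1 of 42 groups of 6 arrays examined over the 7 probe sets, and chance marks about 1 group in 20. Without that array, the Coch difference of 641 mg/kg against vehicle was -0.62 log2 units.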

How the results depend on the processing

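With 1 array left out, the log2 difference of 641 mg/kg against vehicle ranged from 1.24 to 1.38 for Cryl1, from -0.64 to -0.53 for Abhd2, from -0.66 to -0.54 for Plekhb1, from -0.91 to -0.71 for Rhof and from -0.80 to -0.62 for Coch. The choice of the genes fixed these directions. The replicate numbers were not used as pairs in the main fit. With group means removed, 14 of 90 same-numbered pairs correlated above 0.1. The median r was 0.025 for same-numbered pairs and -0.0017 for differently numbered pairs of different groups. These values do not settle whether the numbers pair the arrays.

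Over all probe sets the 511 calls at 641 mg/kg against vehicle became 335 to 507 with 1 array left out. The lowest of these counts came without replicate 2 of 641 mg/kg. Under the other alternatives the calls became 327 to 763, lowest with only the groups compared. Coch lost its call in this comparison with the replicate block, and the brighter Snx10 probe set lost its call with only the groups compared. Both lost it with a variance trend. The 11 calls at 64.1 mg/kg against the 3 lower doses became 5 with the replicate block, 18 after a filter at a group mean of 6, 1 without the arrays 2, 3 and 4 of 64.1 mg/kg (chosen after seeing the data), and 3 to 15 with 1 array left out, lowest without replicate 5 of 64.1 mg/kg. The 8 calls for the slope became 4 with the replicate block, 4 after quantile normalization, 13 after the filter at 6, 4 with only the groups compared, and 4 to 9 with 1 array left out. The cause of these shifts was not tested.

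Rhof at 641 mg/kg stood at -0.49 with the 3 lower doses in place of vehicle, against -0.81. Differences near 0 turned sign at 64.1 mg/kg against the 3 lower doses. Coch stood at -0.0045 with arrays centred on their medians and -0.0092 after quantile normalization, and Rhof at -0.014 with array weights and -0.22 without the arrays 2, 3 and 4 of 64.1 mg/kg. With 1 array left out, Rhof ranged from -0.068 to 0.097 and Coch from -0.12 to 0.12, and the Rhof slope from -0.032 to 0.018. No alternative gave a call for either. The dim level limits what can be read for Coch.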
